A study of Homo sapiens with 6 samples.

Results

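The genes described here are 50 hypoxia-induced genes, proteins of the hypoxia-inducible factor (HIF) pathway and glycolytic enzymes, chosen by name as a list. The choice was made with earlier results of these data known. Of these, 28 were represented on the arrays by a transcript cluster with a gene symbol, out of 14884 genes with a symbol and 53617 transcript clusters in all. A transcript cluster is the set of probes that the array design assigns to 1 gene locus. The remaining 22 genes, among them HIF1A, CA9, SLC2A1 and PDK1, had no transcript cluster with their symbol in the platform annotation used and were not analysed here.

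All values came from SUM159, an established triple negative breast cancer cell line, grown as 3 cultures per group with 1 Affymetrix Human Gene 2.0 ST array each. To search for putative targets of the miRNA, SUM159 cells transduced with a lentivirus for mature miR-1287-5p (miR-1287-5p overexpressing cells) were compared with SUM159 cells that had received a control lentivirus, labelled empty vector (control cells). In the methods both viruses carry GFP and the transduced cells were kept under puromycin for several weeks, and neither the labels nor the methods mention clones, so each group was read as 1 stably transduced population. Both groups were grown in Ham's F12 with insulin, hydrocortisone and fetal bovine serum, and neither the labels nor the methods name a low-oxygen treatment for them. The study describes the replicates as biological triplicates, and p-values measure the spread between these 3 cultures per group.

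HIF is a transcription factor made of an alpha subunit (HIF-1 alpha or HIF-2 alpha) and the constant partner ARNT. When oxygen is plentiful, prolyl hydroxylases of the EGLN family mark the alpha subunit for degradation, and when oxygen falls the alpha subunit persists and binds a short DNA core, ACGTG or GCGTG, near its target genes. Its best known targets raise glucose uptake and glycolysis, remove mitochondria by mitophagy, secrete VEGF to attract vessels, and include histone demethylases that need oxygen to work. Triple negative breast cancers are known for strong expression of such target genes.

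The sequence of the overexpressed miRNA is given first, since it is the planned difference between the groups. The miRNA's own level was not measured here, as no transcript cluster carried its symbol. Its gene lies on the minus strand of chromosome 10, and the capitals mark the seed, bases 2 to 8, which pairs with target mRNAs (RefSeq, GRCh38.p14, chr10:98395271-98395292).
hsa-miR-1287-5p: uGCUGGAUcagugguucgaguc

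The arrays of the series were alike, with correlations between arrays of 0.970 to 0.988 and array medians of 4.33 to 4.42 on the log2 scale. All 28 genes but RORA had a mean signal over 4.37, the median across the whole array. Of 10 markers of breast epithelial lines 7 of the 9 measured, among them VIM, AXL, CD44 and SNAI2, lay above that median, while EPCAM and KRT5 lay below it. The hormone receptors ESR1 and PGR also lay below it, while the luminal markers GATA3 (6.63) and, narrowly, FOXA1 (4.42) lay above it. The first principal component, with 55.7% of the variance, did not separate the groups but set control replicate 1 (-41.5) apart from control replicates 2 (60.6) and 3 (23.4), with miR-1287-5p replicates at 8.10, -14.6 and -36.0. Values without 1 array are given beside the genes that turned on it.

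Among hypoxia-induced genes the values leaned lower in miR-1287-5p overexpressing cells, but no single gene passed the test across all transcript clusters. Because the list was chosen with earlier results of these data known, its shares are a description and not a test. Of the 28 measured genes, 20 (71.4%) had a log2 fold change below 0, against 48.0% of all genes with a symbol and 50.5% of the 10348 of them with a signal above 4.37. The median log2 fold change was -0.14, with a range from -0.67 to 0.23, against 0.011 for all genes with a symbol. Over all 15 alternative settings, which include each array left out, 19 to 23 of the genes had a log2 fold change below 0. The arrays read RNA of whole cultures, so fewer expressing cells and less RNA per cell cannot be told apart. At an adjusted p under 0.05 (limma, Benjamini-Hochberg adjustment over all transcript clusters) 0 of the 28 were called, against 2 of all 53617 transcript clusters (0.00373%). The smallest adjusted p among the 28 was 0.871, and 1 gene, KDM3A, had an unadjusted p under 0.05 by limma.

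The values were split by role. The 20 measured genes other than glycolytic enzymes had a median log2 fold change of -0.17 with 16 (80.0%) below 0, and the 8 measured glycolytic enzymes had a median of -0.0040 with 4 below 0. The transcript cluster of 1 enzyme, PGAM1, is of uncertain identity, and without it the median of the other 7 was -0.065. Whether these groups of genes differed from each other was not tested. The 95% interval of a single gene's log2 fold change had a median half-width of 0.34 over the 28 genes, so that most differences seen here were within the error of 3 against 3 arrays.

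**Figure D1:**
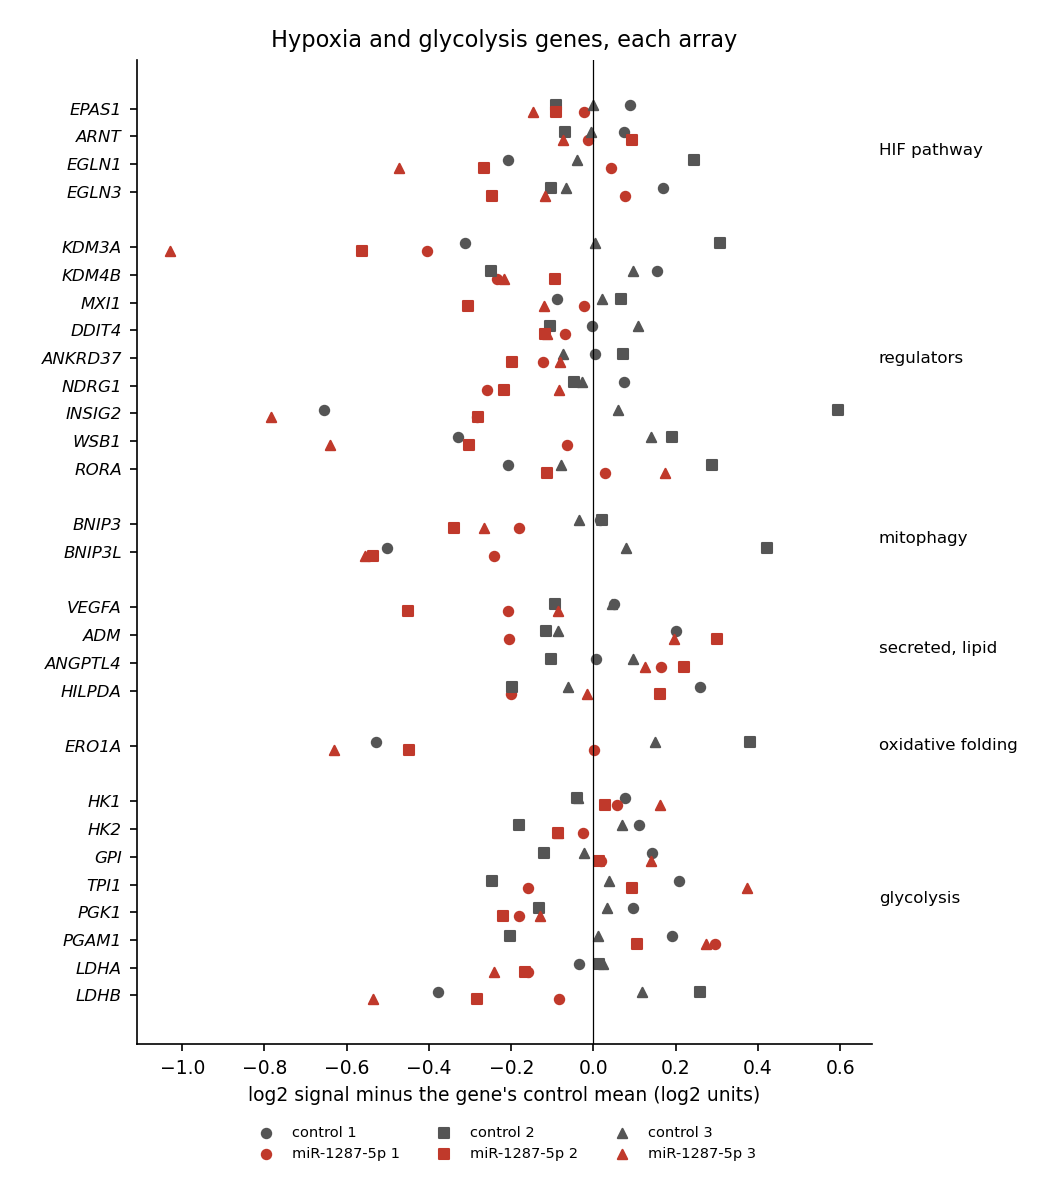
Log2 signal of each of the 28 measured genes in each array, drawn as the difference from the gene's mean in control cells (horizontal axis, log2 units) and grouped by role. Grey marks are control arrays and red marks are miR-1287-5p arrays, with circle, square and triangle for replicates 1, 2 and 3. KDM3A, BNIP3, NDRG1, ANKRD37 and LDHA show all 3 red marks to the left of all 3 grey marks.

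For 5 of the 28 genes (17.9%) every miR-1287-5p array was lower than every control array, namely KDM3A, ANKRD37, NDRG1, BNIP3 and LDHA. Over all genes with a symbol that share was 5.17%. In 1 of 28 (3.57%), ANGPTL4, every miR-1287-5p array was higher, against 6.92% of all genes with a symbol. With an unadjusted p under 0.05, 1 of 28 (3.57%) was lower, against 2.4% of all genes with a symbol, and 0 of 28 were higher, against 2.57%. With 3 against 3 arrays the exact permutation test cannot give a two-sided p below 0.1, which was the value for each of these 6 genes.

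The group of hypoxia-induced regulators had 9 of its 10 genes measured, and 8 of them had a log2 fold change below 0 (median -0.18). KDM3A, a histone H3 lysine 9 demethylase whose gene is a direct HIF target, had the lowest fold change of all 28 genes. The log2 signal of KDM3A (transcript cluster 16882428) was 6.71, 7.33 and 7.03 in control replicates 1 to 3, and 6.62, 6.46 and 5.99 in miR-1287-5p replicates 1 to 3. The groups did not overlap, but miR-1287-5p replicate 1 lay only just under control replicate 1. The means were 7.02 ± 0.31 (SD, n = 3) in control cells and 6.36 ± 0.33 (SD, n = 3) in miR-1287-5p overexpressing cells. This gave a log2 fold change of -0.67 (SE 0.22, 95% interval -1.19 to -0.14), a fold of 0.631, with a limma p of 0.0195 and an adjusted p of 0.871. The unadjusted p of KDM3A was over 0.05 without control replicate 2 (0.065), without miR-1287-5p replicate 3 (0.0641) and with the unpaired test that the study's methods name (0.0623).

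The window around the KDM3A start is printed because KDM3A carried the largest difference. It runs from 250 bases before the RefSeq start to 50 after it on the plus strand (GRCh38.p14, chr2:86441121-86441420), and capitals mark the HIF cores ACGTG and GCGTG on either strand. It held 0 copies of ACGTG and 1 of GCGTG, 26 bases before the start.
KDM3A: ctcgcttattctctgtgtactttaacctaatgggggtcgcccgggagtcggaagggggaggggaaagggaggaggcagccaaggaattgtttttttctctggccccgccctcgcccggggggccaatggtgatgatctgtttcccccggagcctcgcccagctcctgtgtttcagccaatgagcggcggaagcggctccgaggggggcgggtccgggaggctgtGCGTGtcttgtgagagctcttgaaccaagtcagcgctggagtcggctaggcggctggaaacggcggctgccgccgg

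NDRG1 and ANKRD37 differed less in size but were also lower in every miR-1287-5p array. NDRG1, a stress-induced protein used as a hypoxia marker in tumours, had log2 signals of 6.03, 5.91 and 5.93 in control replicates 1 to 3 and of 5.69, 5.73 and 5.87 in miR-1287-5p replicates 1 to 3. The log2 fold change of NDRG1 was -0.19 (SE 0.12, 95% interval -0.48 to 0.10, limma adjusted p = 0.871). ANKRD37, an ankyrin repeat protein whose gene is induced by HIF, had log2 signals of 5.61, 5.68 and 5.53 in control cells and of 5.48, 5.41 and 5.52 in miR-1287-5p overexpressing cells. In ANKRD37 the highest miR-1287-5p array (replicate 3) and the lowest control array (replicate 3) were nearly equal. Its log2 fold change was -0.14 (SE 0.12, 95% interval -0.42 to 0.15, limma adjusted p = 0.88).

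The start window of ANKRD37 (plus strand, GRCh38.p14, chr4:185396591-185396890) held 3 copies of ACGTG. A pair of them overlap as CACGTG, which is read on both strands and is also the E-box bound by other factors, 161 and 162 bases before the start. The third copy lay 143 bases before the start.
ANKRD37: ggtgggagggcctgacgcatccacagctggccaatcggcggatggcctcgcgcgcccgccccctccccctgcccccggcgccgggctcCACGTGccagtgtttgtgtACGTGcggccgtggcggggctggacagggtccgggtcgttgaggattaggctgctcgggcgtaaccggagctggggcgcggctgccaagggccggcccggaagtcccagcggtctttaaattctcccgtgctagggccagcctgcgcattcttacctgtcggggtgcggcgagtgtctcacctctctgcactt

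INSIG2, which holds back the sterol sensor in the endoplasmic reticulum, had the widest spread of all 28 genes between control arrays. Its log2 signal was 5.57, 6.82 and 6.28 in control replicates 1 to 3 and 5.94, 5.94 and 5.44 in miR-1287-5p replicates 1 to 3, so the groups overlapped through the low control replicate 1. The log2 fold change was -0.45 (SE 0.32, 95% interval -1.19 to 0.29, limma adjusted p = 0.871), and it was -0.15 without control replicate 2, -0.28 without miR-1287-5p replicate 3 and -0.78 without control replicate 1. The other regulators all overlapped. WSB1, a subunit of a ubiquitin ligase, had a log2 fold change of -0.34 (-0.50 without control replicate 1 and -0.18 without miR-1287-5p replicate 3), the histone demethylase KDM4B -0.18, MXI1, a MYC antagonist, -0.15, and DDIT4, an inhibitor of mTORC1 signalling, -0.10. RORA, a nuclear receptor, had a log2 fold change of 0.031 at a signal under 4.37, and this value was -0.073 without control replicate 1. A further transcript cluster of MXI1 had a log2 fold change of 0.17. By the order of the IDs it lay among genes of the opposite strand, and it was not used.

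**Figure D2:**
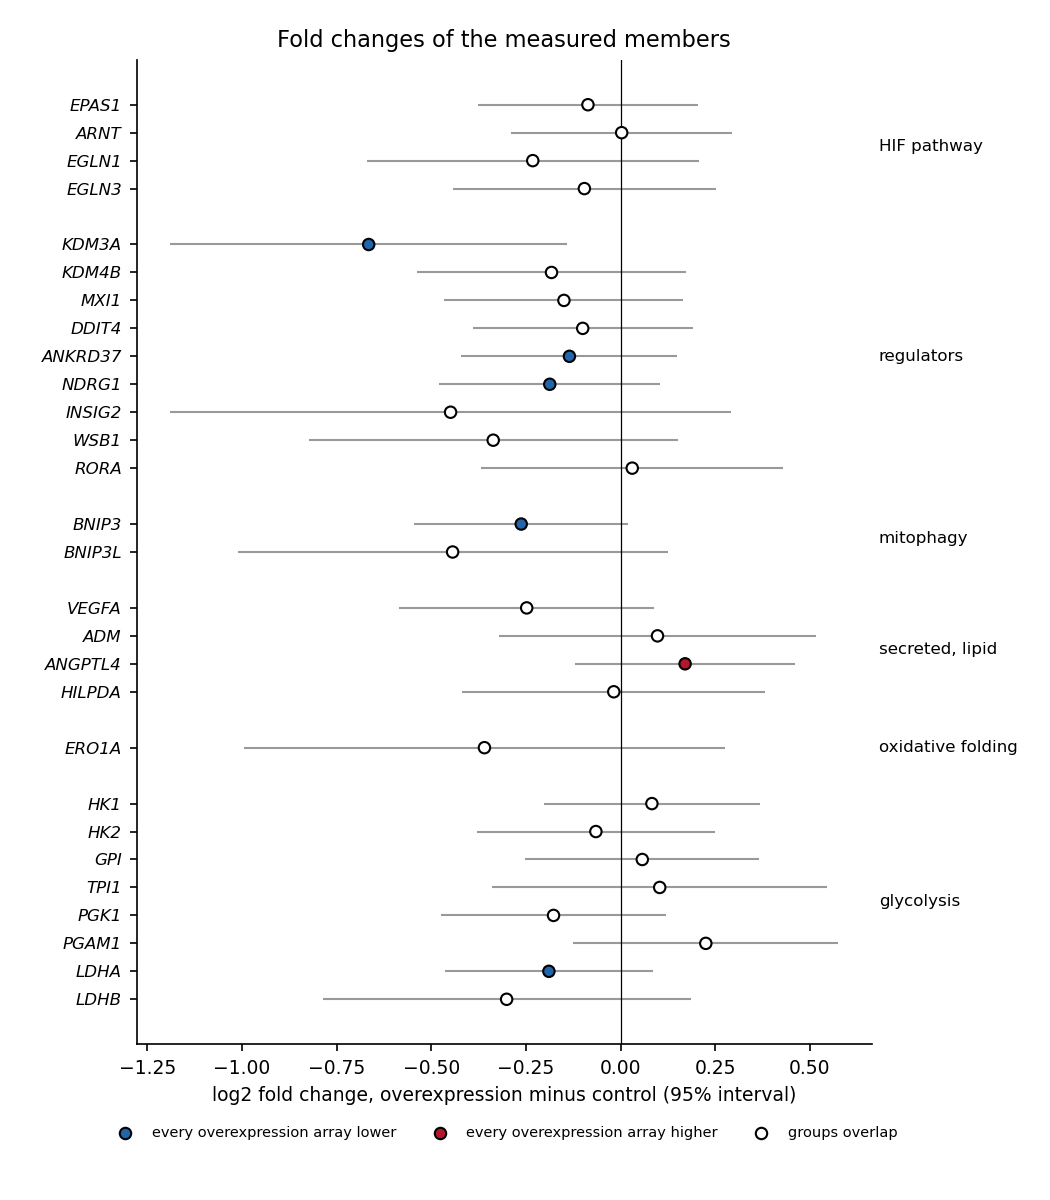
Log2 fold change of each measured gene, miR-1287-5p overexpression minus control (horizontal axis, log2 units), with its 95% interval from limma as a horizontal line, grouped by role. Blue points are the 5 genes with every miR-1287-5p array lower than every control array, the red point is ANGPTL4 with every one higher, and for open points the groups overlap. Only the interval of KDM3A, from -1.19 to -0.14, leaves out 0.

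Both mitophagy receptors were measured and both had a log2 fold change below 0 (median -0.35). BNIP3 and BNIP3L (NIX) sit in the outer mitochondrial membrane, bind LC3-family proteins and so hand mitochondria to autophagy. BNIP3 (transcript cluster 16719644) had a log2 signal of 10.16, 10.16 and 10.11 in control replicates 1 to 3 and of 9.96, 9.80 and 9.88 in miR-1287-5p replicates 1 to 3. The 3 control arrays lay close together and all 3 miR-1287-5p arrays lay under them. The means were 10.14 ± 0.032 (SD, n = 3) and 9.88 ± 0.078 (SD, n = 3), which gave a log2 fold change of -0.26 (SE 0.12, 95% interval -0.54 to 0.020, exact permutation p = 0.1, limma p = 0.0638 before and 0.871 after adjustment). BNIP3 was little affected by any 1 array, with a log2 fold change between -0.30 and -0.22 when each array was left out in turn.

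BNIP3L had a larger and less even difference. Its log2 signal was 9.74, 10.67 and 10.33 in control replicates 1 to 3, and 10.01, 9.71 and 9.69 in miR-1287-5p replicates 1 to 3. Control replicate 1 lay within the range of the miR-1287-5p arrays, so the groups overlapped. The log2 fold change was -0.44 (SE 0.24, 95% interval -1.01 to 0.12, exact permutation p = 0.2, limma p = 0.108 before and 0.871 after adjustment), and it was -0.23 without control replicate 2 and -0.70 without control replicate 1.

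The start window of BNIP3 is shown because every miR-1287-5p array lay under every control array. The gene lies on the minus strand and the sequence is given in its reading direction (GRCh38.p14, chr10:131981874-131982173). It held 2 overlapping copies of ACGTG, as CACGTG 133 and 134 bases before the start, and 4 copies of GCGTG, all on the opposite strand and so read here as CACGC.
BNIP3: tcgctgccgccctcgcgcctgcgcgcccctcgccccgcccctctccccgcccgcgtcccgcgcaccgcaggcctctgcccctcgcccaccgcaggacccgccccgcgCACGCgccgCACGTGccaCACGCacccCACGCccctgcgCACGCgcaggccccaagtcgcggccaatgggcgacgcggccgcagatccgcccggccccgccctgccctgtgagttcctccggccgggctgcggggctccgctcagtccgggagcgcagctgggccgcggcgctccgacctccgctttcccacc

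Of the HIF pathway proteins 4 of 5 were measured and 3 had a log2 fold change below 0 (median -0.091), and all 4 overlapped between the groups. EGLN1, the main prolyl hydroxylase that marks HIF alpha subunits, had a log2 signal of 7.96, 8.41 and 8.13 in control replicates 1 to 3 and of 8.21, 7.90 and 7.70 in miR-1287-5p replicates 1 to 3. Control replicate 2 was the highest of the 6 arrays and miR-1287-5p replicate 3 the lowest. Its log2 fold change was -0.23 (SE 0.19, 95% interval -0.67 to 0.21, limma adjusted p = 0.874). It was -0.11 without control replicate 2 or without miR-1287-5p replicate 3, and -0.37 without miR-1287-5p replicate 1. EGLN3, a hydroxylase whose own gene is induced by HIF, had log2 signals of 5.59, 5.32 and 5.36 in control cells and of 5.50, 5.18 and 5.31 in miR-1287-5p overexpressing cells, with a log2 fold change of -0.096 (SE 0.15, 95% interval -0.44 to 0.25). In both groups replicate 1 of EGLN3 was the highest, and its log2 fold change was -0.011 without control replicate 1, -0.020 without miR-1287-5p replicate 2 and -0.18 without miR-1287-5p replicate 1. EPAS1, which encodes HIF-2 alpha, had a log2 fold change of -0.086 (95% interval -0.38 to 0.20) and ARNT one of 0.0029 (95% interval -0.29 to 0.29).

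The secreted and lipid storage genes showed no common direction, with 2 of 4 measured genes below 0 (median 0.040). VEGFA, the growth factor for blood vessels, had a log2 signal of 7.42, 7.28 and 7.42 in control replicates 1 to 3 and of 7.17, 6.92 and 7.29 in miR-1287-5p replicates 1 to 3. The highest miR-1287-5p array lay just above the lowest control array, and the log2 fold change was -0.25 (SE 0.14, 95% interval -0.58 to 0.089, exact permutation p = 0.2, limma p = 0.126 before and 0.871 after adjustment). Without miR-1287-5p replicate 2 it was -0.15. ANGPTL4, a secreted inhibitor of lipoprotein lipase, was in the deposited values the only one of the 28 genes that was higher in every miR-1287-5p array, and with array medians centred its groups overlapped. Its log2 signals were 6.25, 6.14 and 6.34 in control cells and 6.40, 6.46 and 6.37 in miR-1287-5p overexpressing cells, a log2 fold change of 0.17 (SE 0.12, 95% interval -0.12 to 0.46, limma adjusted p = 0.871). The peptide hormone gene ADM had a log2 fold change of 0.097 and HILPDA, a lipid droplet protein that blocks triglyceride breakdown, one of -0.018.

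ERO1A was the only gene measured of the 5 for collagen modification and oxidative folding. It is the oxidase that passes electrons from protein disulfide isomerase to oxygen in the endoplasmic reticulum. Its log2 signal was 8.33, 9.24 and 9.01 in control replicates 1 to 3 and 8.86, 8.41 and 8.22 in miR-1287-5p replicates 1 to 3. The lowest of the 6 arrays was miR-1287-5p replicate 3, closely followed by control replicate 1. The log2 fold change was -0.36 (SE 0.27, 95% interval -0.99 to 0.27, limma adjusted p = 0.872). It was -0.17 without control replicate 2 and -0.62 without control replicate 1. None of the 5 genes for glucose and lactate transport and pyruvate entry was measured with a symbol.

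Of the 18 glycolytic enzymes 8 were measured, and their log2 fold changes ran from -0.30 to 0.23 with a smallest unadjusted limma p of 0.149. The rate-limiting phosphofructokinases, the aldolases, the enolases and PKM were not among them, so the measured enzymes cover the hexokinase, isomerase, phosphoglycerate and lactate steps. Their 95% intervals reached from -0.79 to 0.57, and only HK1, GPI and PGAM1 had an interval that left out a difference as low as that of BNIP3, one of the mitophagy receptors.

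LDHA, the lactate dehydrogenase subunit that favours making lactate from pyruvate, was the only enzyme whose groups did not overlap. Its log2 signal (transcript cluster 16722603) was 8.003, 8.053 and 8.063 in control replicates 1 to 3 and 7.881, 7.872 and 7.797 in miR-1287-5p replicates 1 to 3. The arrays within each group lay close together, with SDs of 0.032 and 0.046. The log2 fold change was -0.19 (SE 0.12, 95% interval -0.46 to 0.086, exact permutation p = 0.1, limma p = 0.149 before and 0.871 after adjustment), and it lay between -0.21 and -0.16 when each array was left out in turn.

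LDHA is also a textbook HIF target, and its start window is shown for that reason (plus strand, GRCh38.p14, chr11:18394313-18394612). It held 5 copies of ACGTG, 4 of them as a pair of CACGTG palindromes and the fifth 73 bases before the start on the opposite strand, and 1 copy of GCGTG after the start.
LDHA: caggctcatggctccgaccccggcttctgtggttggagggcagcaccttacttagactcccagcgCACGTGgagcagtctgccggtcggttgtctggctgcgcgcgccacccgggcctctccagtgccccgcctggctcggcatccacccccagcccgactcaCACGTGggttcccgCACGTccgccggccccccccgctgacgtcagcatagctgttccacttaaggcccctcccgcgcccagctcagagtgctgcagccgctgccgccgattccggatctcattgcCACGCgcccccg

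LDHB, the subunit more abundant in oxidative tissue, had log2 signals of 8.38, 9.02 and 8.87 in control replicates 1 to 3 and of 8.67, 8.47 and 8.22 in miR-1287-5p replicates 1 to 3. The groups overlapped through control replicate 1. Its log2 fold change was -0.30 (SE 0.21, 95% interval -0.79 to 0.19, limma adjusted p = 0.871). It was -0.17 without control replicate 2, -0.18 without miR-1287-5p replicate 3 and -0.49 without control replicate 1. PGK1, which makes the first ATP of glycolysis, had a log2 fold change of -0.18, and HK2, the hexokinase isoform induced by HIF, one of -0.065.

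The other enzymes had values above 0. PGAM1, a phosphoglycerate mutase, had the highest log2 fold change of the 28 genes, with signals of 9.50, 9.11 and 9.32 in control replicates 1 to 3 and of 9.61, 9.42 and 9.59 in miR-1287-5p replicates 1 to 3. The groups overlapped and the log2 fold change was 0.23 (SE 0.15, 95% interval -0.12 to 0.57, limma adjusted p = 0.871). The identity of this transcript cluster is uncertain, because all 20 of its nearest neighbours in the order of the IDs belong to chromosome 12 while PGAM1 lies on chromosome 10. Without control replicate 2 its log2 fold change was 0.12. Log2 fold changes were 0.10 for the triose phosphate isomerase TPI1, 0.083 for the hexokinase HK1 and 0.057 for GPI, which turns glucose 6-phosphate into fructose 6-phosphate.

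**Figure D3:**
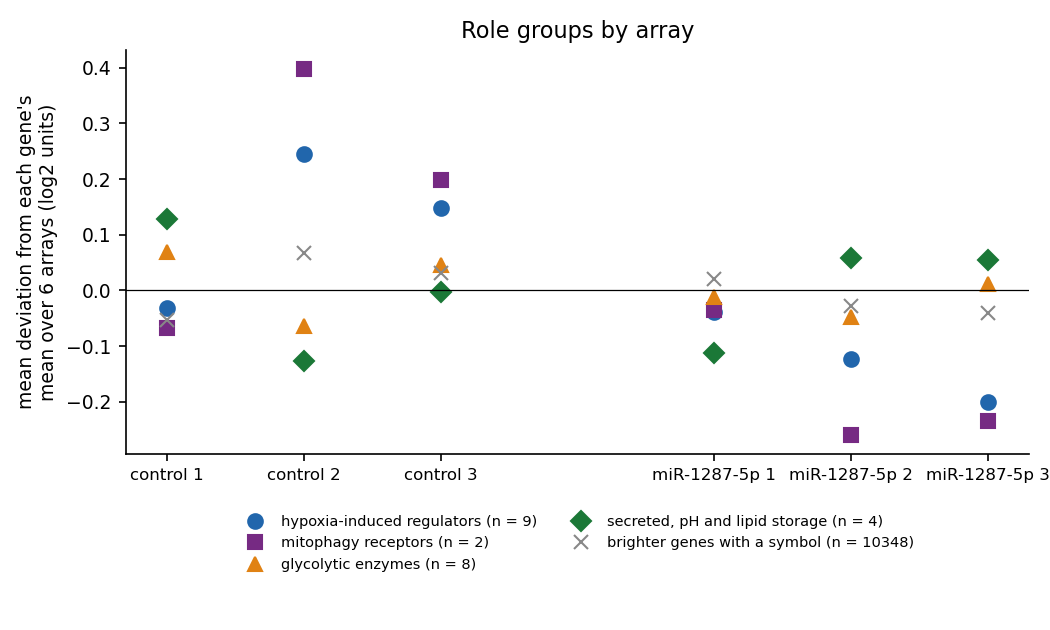
Mean deviation of the larger part of the role groups in each array (vertical axis, log2 units), where every gene's signal is taken relative to its own mean over the 6 arrays. The HIF pathway proteins and ERO1A are not drawn. The regulators (circles) and mitophagy receptors (squares) are highest in control replicates 2 and 3 and lowest in miR-1287-5p replicates 2 and 3, and the glycolytic enzymes (triangles) stay between -0.064 and 0.068. Diamonds are the secreted and lipid storage genes and crosses all genes with a symbol and a signal above 4.37.

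Averaged over the role groups, the lower values were not spread evenly over the arrays. The 9 regulators deviated from their own means by -0.031, 0.25 and 0.15 in control replicates 1 to 3 and by -0.039, -0.12 and -0.20 in miR-1287-5p replicates 1 to 3. For the mitophagy receptors these deviations were -0.067, 0.40 and 0.20 in control cells and -0.035, -0.26 and -0.24 in miR-1287-5p overexpressing cells. In both groups of genes control replicate 1 lay at the level of miR-1287-5p replicate 1, while control replicates 2 and 3 lay above it and miR-1287-5p replicates 2 and 3 below it. The glycolytic enzymes deviated by 0.068, -0.064 and 0.046 in control cells and by -0.012, -0.048 and 0.011 in miR-1287-5p overexpressing cells.

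The 28 genes fell into different patterns over the control arrays. In 9 of them (32.1%) control replicate 1 was the lowest and control replicate 2 the highest, which is the order of these arrays on the first principal component. These were EGLN1, KDM3A, MXI1, INSIG2, WSB1, RORA, BNIP3L, ERO1A and LDHB, and their median log2 fold change was -0.34. Among all genes with a symbol 24.7% had this order, and among those with a signal above 4.37 it was 30.1%, with a median log2 fold change of -0.24. In 14 of the 28 genes (50.0%) control replicate 2 was the lowest and control replicate 1 the highest, with a median log2 fold change of -0.042, against 35.0% and a median of 0.11 among the genes with a signal above 4.37.

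The size of this array difference was uneven within families. Control replicate 2 exceeded control replicate 1 by 0.93 log2 units for BNIP3L and by 0.0054 for BNIP3, and by 0.64 for LDHB against 0.051 for LDHA. For INSIG2 the difference was 1.25 and for ERO1A 0.91. The part of this array difference in the fold changes was not tested. BNIP3, LDHA and ANKRD37 followed neither order, and NDRG1 had the opposite one.

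**Figure D4:**
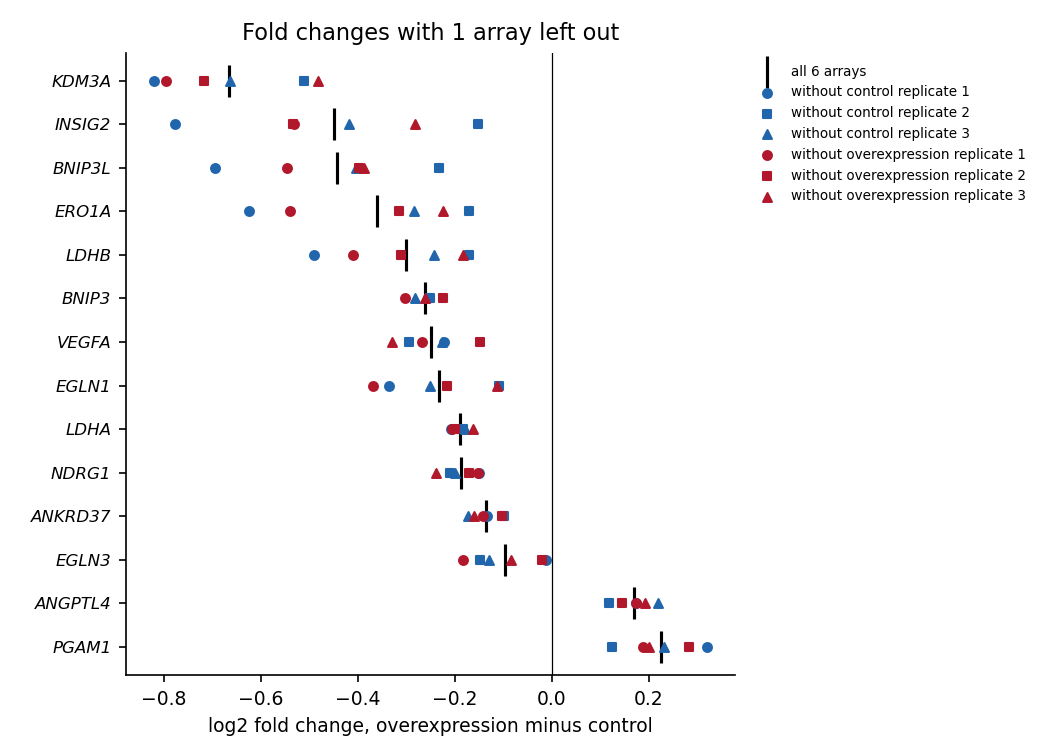
Log2 fold change (horizontal axis, log2 units) of 14 genes with all 6 arrays (black bars) and with 1 array left out (blue for control, red for miR-1287-5p, circle, square and triangle for replicates 1, 2 and 3). INSIG2, BNIP3L, ERO1A and LDHB spread widely between leaving out control replicate 1 and control replicate 2, BNIP3 and LDHA stay close to the value with all arrays, and no gene crosses 0.

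By the definition of the first pattern, leaving out control replicate 1 had to lower its fold changes and leaving out control replicate 2 had to raise them. With control replicate 1 left out, 6 of the 28 genes had an unadjusted limma p under 0.05, but so did 15.5% of all genes with a symbol. With control replicate 2 left out 0 of the 28 did, against 3.26% of all. The count of genes lower in every miR-1287-5p array was 11 of 28 in each case, against 19.0% of all genes without control replicate 1 and 9.65% without control replicate 2. The 14 genes drawn individually kept their sign in all 15 alternative settings. Of the genes not drawn, ARNT, RORA, ADM, HILPDA, GPI and TPI1, all with log2 fold changes near 0, changed sign when at least 1 array was left out.

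HIF cores near the start were looked up for the 24 of the 28 genes with a RefSeq start window (NDRG1, BNIP3L, VEGFA and HILPDA had no entry). ACGTG on either strand stood in 13 of 24 windows (54.2%), against 21.4% of all 35116 RefSeq windows of 300 bases, and GCGTG stood in 36.5% of all windows. The motif ACGTG overlaps the E-box CACGTG, which stood in 7.26% of all windows. Many of these genes are on the list because they are HIF targets, so a high share describes the list and says nothing about the arrays. A window without ACGTG can still hold the other core, GCGTG, as those of KDM3A, LDHB, EPAS1 and ADM did, so the next split is by ACGTG only. The median log2 fold change was -0.18 for the 13 genes with ACGTG and 0.0029 for the 11 without it, given as a description. Those 11 include PGAM1, whose transcript cluster is of uncertain identity. Among the regulators these medians were -0.18 with ACGTG (5 genes) and -0.15 without it (3 genes), and among the 16 genes other than glycolytic enzymes -0.23 (9 genes) and -0.086 (7 genes). Among the glycolytic enzymes, PGAM1 included, they were -0.12 (4 genes) and 0.093 (4 genes). Of the secreted genes, the 1 with ACGTG had 0.17 and the 1 without it 0.097.

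Further genes of the same pathways leaned lower to a smaller extent. Over 5 further lists, 74 of 116 genes were measured, of which 46 (62.2%) had a log2 fold change below 0, with a median of -0.056. At an unadjusted limma p under 0.05, 6 of the 74 (8.11%) were lower and 0 higher, against 2.4% and 2.57% of all genes with a symbol, and 0 passed the adjusted threshold. In every miR-1287-5p array 11 of the 74 (14.9%) were lower and 2 (2.7%) higher, against 5.17% and 6.92% of all genes with a symbol. These lists too were chosen with earlier results of these data known.

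Of 28 further hypoxia-induced genes 18 were measured and 12 had a log2 fold change below 0 (median -0.12). VLDLR, a lipoprotein receptor induced by HIF, had log2 signals of 4.71, 4.73 and 4.85 in control cells and of 4.25, 4.33 and 4.07 in miR-1287-5p overexpressing cells, with no overlap. Its log2 fold change was -0.55 (SE 0.13, exact permutation p = 0.1, limma p = 0.00384 before and 0.814 after adjustment), the smallest limma p in these lists. The mean signal of VLDLR, 4.49, was near 4.37, the median across the whole array, and every miR-1287-5p array lay under 4.37. TMEM45A, a transmembrane protein gene induced by hypoxia, had a log2 fold change of -0.40 (exact permutation p = 0.1, limma p = 0.0128 before and 0.865 after adjustment) and also no overlap. STC2 and YEATS2 were lower in every miR-1287-5p array as well, with smaller log2 fold changes of -0.20 and -0.21. GYS1, the muscle glycogen synthase, was higher in every miR-1287-5p array with a log2 fold change of 0.28 (exact permutation p = 0.1, limma p = 0.0811 before adjustment).

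KDM3A belongs to the JmjC family of histone demethylases. A list of 14 other members, which is not the whole family and leaves out KDM4B and KDM4C, was measured in full. Of these 14, 10 had a log2 fold change below 0 (median -0.10). None had an unadjusted p under 0.05, with the smallest at 0.0657 for KDM5A. KDM5A and KDM5B, which remove methyl groups from histone H3 lysine 4, did not overlap between the groups, with log2 fold changes of -0.41 and -0.26. Without control replicate 2 the value of KDM5A was -0.26.

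Of 18 other mitophagy genes 15 were measured, and their median log2 fold change was 0.038 with 7 below 0. GABARAPL1, an LC3-family protein, had a log2 fold change of -0.39 (exact permutation p = 0.1, limma p = 0.0365 before and 0.871 after adjustment), and it was the only gene of this list at an unadjusted p under 0.05. That call was lost without control replicate 2 or 3 and without miR-1287-5p replicate 2 or 3, with a log2 fold change between -0.48 and -0.28 over all left-out arrays. The mean signal of GABARAPL1, 4.50, was near 4.37, the median across the whole array.

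All 6 measured genes of 14 for HIF degradation and cofactors had a log2 fold change below 0 (median -0.089) and none had an unadjusted p under 0.05. Of 42 other enzymes and carriers of glucose and pyruvate 21 were measured, with a median of -0.0021 and 11 below 0. GPD2, the mitochondrial glycerol 3-phosphate dehydrogenase that takes electrons from glycolytic NADH, had log2 signals of 5.17, 6.10 and 5.85 in control cells and of 4.96, 5.00 and 4.68 in miR-1287-5p overexpressing cells. All 3 miR-1287-5p arrays lay under the controls, and the log2 fold change was -0.83 (SE 0.25, exact permutation p = 0.1, limma p = 0.0115 before and 0.865 after adjustment). GPD2 is on the study's own list of lower genes, which was chosen on these same arrays, so it is not independent evidence. The same list also names CA9, whose values were not analysed here for want of a symbol. DLAT, a core subunit of the pyruvate dehydrogenase complex, and TIGAR, a fructose bisphosphatase that slows glycolysis, had log2 fold changes of -0.45 and -0.35 (exact permutation p = 0.1 for each, limma p = 0.0315 and 0.0466 before adjustment). Without control replicate 2 they were -0.34 and -0.24 with an unadjusted p over 0.05, as in 4 of the 6 left-out arrays for DLAT and in 5 of 6 for TIGAR. PDHB was also lower in every miR-1287-5p array (log2 fold change -0.14), and PGD was higher in every one (0.13). GAPDH, the glycolytic dehydrogenase used as a reference gene, had a log2 fold change of 0.020 (95% interval -0.27 to 0.31).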

How the data were processed

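The authors made the deposited log2 values by RMA, which corrects background, normalizes arrays by quantiles and summarises probes by median polish, in Partek Genomics Suite 6.6, and the filtering step they also name is not described. No further normalization was applied. Symbols came from the annotation of the array platform, which names 1 gene for 16098 transcript clusters, several for 0 and none for 37519. One transcript cluster stood for a symbol, the one with the highest mean over the 6 arrays.

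The groups were compared two-sided with limma's lmFit and eBayes (version 3.58.1, R 4.3.3), which was tested on simulated data. P-values were adjusted by Benjamini-Hochberg across the 53617 transcript clusters and called at 0.05. Values per array were given for genes with an unadjusted p under 0.05 or without overlap, both mitophagy receptors, VEGFA and the 2 genes of each role group that differed most, and further genes by the smallest p. KDM5A, KDM5B, GYS1, STC2, YEATS2, PDHB and PGD were named after their values were seen. The genes and lists were chosen with earlier results of these data known. Neighbours in ID order were checked 10 to each side. Start windows came from RefSeq (GRCh38.p14). Alternatives were an intensity trend, the methods' t-test, a replicate block, centred medians, cyclic loess, only brighter or only named transcript clusters, array weights, the mean over a symbol's transcript clusters, each array left out, and, added after the data were seen, PGAM1 left out and the left-out arrays for further genes. The number of arrays limits the precision.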

Additional observations from a re-analysis of the deposited data

How the results depend on the processing

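The 14 genes given by array kept the sign of their log2 fold change in all 15 alternative settings, and their smallest adjusted p by limma in any of these was 0.122, for KDM3A with array weights. The medians of all measured genes, of the regulators and of the mitophagy receptors differed from the main values by less than the spread between arrays, with ranges over the left-out arrays of -0.15 to -0.10, -0.17 to -0.15 and -0.48 to -0.24. The median of the glycolytic enzymes ran from -0.088 (without control replicate 2) to 0.056 when each array was left out. Deviations of same-numbered arrays from their group means correlated at -0.47, -0.0018 and -0.081, which gave no sign that the replicate numbers pair the cultures. With so few arrays per group these correlations cannot show whether the cultures were paired. With the replicate block 0 transcript clusters passed the adjusted threshold. In that setting 1 of the 28 genes, KDM3A, had an unadjusted limma p under 0.05, against 3.03% of all genes with a symbol.

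Transcript clusters past the adjusted threshold numbered 2 in the main setting, 0 with the methods' t-test, 1 with cyclic loess, 5 with dim transcript clusters left out, 25 with array weights, and 0 to 0 when each array was left out. Array weights gave control replicate 3 a weight of 7.91 against 0.366 and 0.514 for the other controls. Genes of the 28 with an unadjusted p under 0.05 numbered 1 in the main setting (KDM3A, with 4.97% of all genes with a symbol). They numbered 2 (BNIP3 and KDM3A) with an intensity trend, centred medians, cyclic loess, dim transcript clusters left out or only named ones tested, with 5.19% to 5.99% of all genes. With the methods' t-test they numbered 3 (BNIP3, LDHA and NDRG1, without KDM3A, and 6.34% of all genes), with array weights 8 (21.1%), and 0 (3.26% without control replicate 2 and 3.0% without miR-1287-5p replicate 3) to 6 (15.5%, without control replicate 1) when each array was left out. Genes whose groups do not overlap numbered 6 in the main setting (12.1% of all genes), 8 with centred medians (12.4%, all lower, with ANGPTL4 lost), 10 with cyclic loess (12.6%), and 6 (17.9%) to 15 (40.6%, without control replicate 1) when each array was left out. The causes were not tested.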
